A study of Mus musculus with 9 samples.

Results

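The comparison described here set OT-1 T cells cultured for 24 h with macrophages that had been loaded with their ovalbumin (OVA) peptide against OT-1 T cells cultured alone. It used 6 of the 9 samples of the series, 3 in each group, and all 750 genes measured. OT-1 T cells are CD8+ T cells of a transgenic mouse in which the T cell receptor (TCR) recognizes an OVA peptide presented by H-2Kb. In both groups, OT-1 splenocytes had been stimulated with 1 µM SIINFEKL peptide and 50 IU per ml IL-2 for 48 h, purified for CD8+ cells and expanded in IL-2 for 4 days, so the reference cells were primed effector cells, although the design text of the deposit calls them naive. The macrophages were grown from Ly6C-high bone marrow monocytes, loaded with 10 µM peptide for 4 h and washed. The sample labels give 5 T cells per macrophage, while the written methods give a lower ratio. CD8+ cells were recovered by cell sorting after the 24 h, a step that the written methods do not limit to the co-cultures. The written methods place IL-2 in the medium of the OT-1 T cells alone and do not make clear whether the co-cultures received it. There was no group with unpulsed macrophages, so contact with macrophages, their peptide and any difference in the sort or in IL-2 cannot be told apart here. The remaining 3 samples, in which CT2A-TRP2-B2mKO glioma cells had been added to the same co-culture, entered the fit only through the shared estimate of the spread, apart from the last comparison below.

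RNA was counted on an nCounter, an instrument that reads color-barcoded probes hybridized to each transcript without amplification, and each level below is a log2 normalized count. Of the 750 genes, 387 had a mean level of at least 6.64 (100 normalized counts) in either group and were kept. Of these, 351 passed in both groups, 28 passed only through the macrophage group and 8 only through OT-1 T cells alone. A gene that passed through 1 group only had to differ, and 11 of the 28 no longer reached the limit once macrophage replicate 2 was left out. The highest genes below the limit were Isg15, Vegfa and Gzmk, with a higher group mean of 6.61, 6.61 and 6.60, and the lowest above it were Klra7, Ddx60 and Cd70, at 6.64, 6.74 and 6.75.

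Macrophage replicate 2 stood apart in depth. Its recovered total was 132019 counts, against 733804 to 1185958 in the other 5 samples of the comparison, so that 100 normalized counts carried a counting error of 25.3% there and of 8.25% to 10.6% elsewhere. Among the 276 genes with a level under 5 in macrophage replicates 1 and 3, replicate 2 lay above their mean for 275, by a median of 2.16. Among the 190 genes from 9 to 12, it lay above for 63, with a median difference of -0.09. The totals are therefore also given without that replicate, as are the counts of the gene lists that it moved. In the bulk RNA of a sorted population, fewer cells of one type and less RNA per cell cannot be told apart. Nothing in the labels says that the replicates came from separate animals, so the P values measure only the spread between these samples.

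An effector CD8+ T cell that meets its peptide again signals through the TCR to the NFAT, AP-1 and NF-κB transcription factors and the MAP kinase pathway. The genes switched on include cytokines, chemokines, surface receptors that tune the response, and feedback inhibitors of the same pathways. Cytokines such as IL-2 and IL-12 act on the same cells through JAK and STAT proteins, and SOCS proteins limit that signal.

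OT-1 T cells that had met OVA-pulsed macrophages differed from primed cells alone in both directions. Over all 750 genes, 89 were higher (11.9%) and 49 lower (6.53%) than in OT-1 T cells alone at an adjusted P value under 0.05, 18.4% in all. Among the 387 kept genes, 86 were higher (22.2%) and 49 lower (12.7%), 34.9% in all, and 44 of the rises and 18 of the falls were at least 2-fold. All 86 of the rises and 48 of the 49 falls also passed without macrophage replicate 2, which left out only Gbp5 (adjusted P value 0.0583) and brought the totals to 95 and 69 (22.7% of all 750 genes passed in that fit). Among the 351 genes kept through both groups, 72 rose and 45 fell. The groups did not overlap for 147 kept genes that were higher and 111 that were lower, beside 53.1% of all genes, and an exact permutation test of 3 samples against 3 cannot go below P = 0.1. The median log2 fold change was 0.04 over kept genes and 0.66 over all genes, or 0.20 over all genes without that replicate. The balance of rises and falls depended on the scaling, with 71 and 60 after centring on genes at a level of 9 or more, 68 and 60 after quantile normalization, and 7 and 29 after centring on the median of all genes. That last setting takes 0.695 from each log2 fold change, so that the 17 kept rises of up to 0.67 turned negative under it and no fall changed sign.

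**Figure D1:**
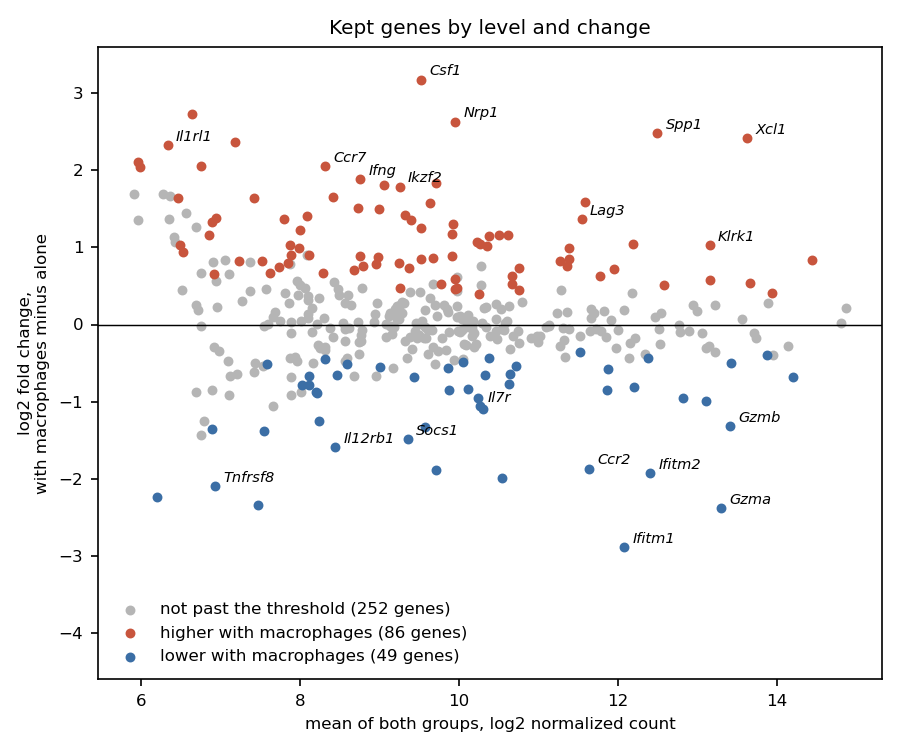
Log2 fold change (macrophage co-culture minus OT-1 T cells alone, vertical axis) against the mean log2 normalized count of both groups (horizontal axis) for the 387 kept genes. Red points are the 86 genes that were higher, blue points the 49 that were lower and grey points those not past the threshold; Csf1 at 3.18 and Ifitm1 at -2.89 mark the ends.

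The largest rise was that of Csf1, which encodes macrophage colony-stimulating factor, the growth and survival factor of macrophages. Its level was 7.68, 7.96 and 8.18 in the 3 samples of OT-1 T cells alone and 11.25, 10.86 and 11.24 with macrophages. The groups did not overlap, and the gene rose 9.04-fold (log2 fold change 3.18, s.e. 0.16, adjusted P value 9.27e-05). Spp1, the gene of osteopontin, a secreted glycoprotein that acts on myeloid cells, stood at 11.23, 11.20 and 11.33 alone and at 13.67, 13.72 and 13.83 with macrophages. It was thus already abundant and rose a further 5.60-fold (2.49, s.e. 0.08, adjusted P value 1.51e-05). Nrp1, which encodes the coreceptor neuropilin-1, went from 8.66, 8.56 and 8.69 to 11.43, 11.12 and 11.26 (6.20-fold, adjusted P value 3.28e-05). The groups were far apart beside the spread among the macrophage samples (SD 0.16).

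The largest fall was that of Ifitm1, an interferon-induced transmembrane protein gene. It had been among the most abundant transcripts, at 13.51, 13.53 and 13.54 in OT-1 T cells alone, and stood at 10.60, 10.77 and 10.54 with macrophages. It fell by 2.89 on the log2 scale (s.e. 0.08, adjusted P value 1.51e-05), or 7.41-fold. Ifitm2, of the same family, fell by 1.93, from 13.36, 13.38 and 13.37 to 11.44, 11.47 and 11.42. Gzma, the gene of the granule protease granzyme A, went from 14.51, 14.47 and 14.47 to 11.98, 12.29 and 12.04 (5.21-fold lower, adjusted P value 3.75e-05). For these genes the samples of each group lay close together beside the distance between the groups.

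**Figure D2:**
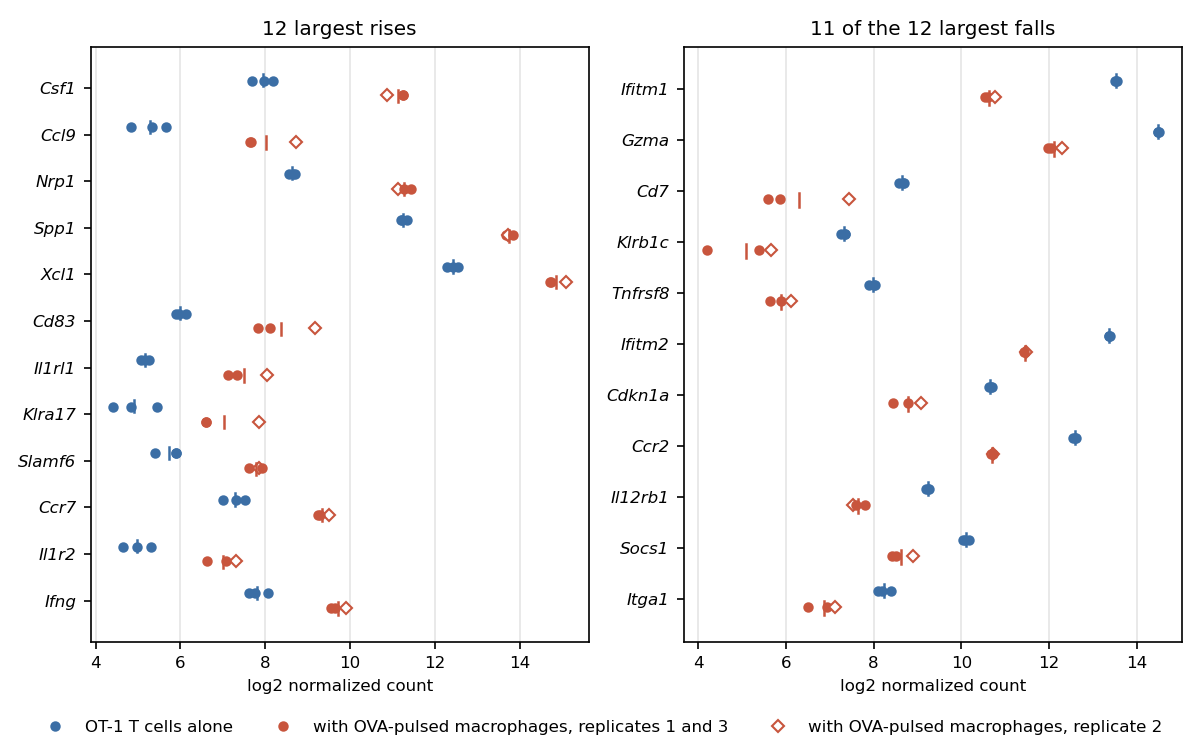
Level (log2 normalized count, horizontal axis) of the 12 genes with the largest rise and 11 of the 12 with the largest fall, in each of the 3 OT-1 T cell samples alone (blue) and the 3 macrophage co-cultures (red). Open diamonds mark macrophage replicate 2 and short vertical lines the group means; the groups do not overlap for any of these genes, and the diamonds stand apart mainly in genes of low level such as Ccl9, Cd83, Klra17 and Cd7.

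In 18 of the 135 kept genes that changed, the call was kept in each alternative setting that tested the gene (20 settings, or 19 for Tnfrsf8, which was kept through OT-1 T cells alone only). The 4 that rose were Csf1, Nrp1, Spp1 and Xcl1. The falls among them included Ifitm1, Ifitm2, Gzma, Ccr2, Cxcr6, Il12rb1, Il7r, Socs1, Isg20, Flt3l, Lta, Cd244 and Tnfrsf8.

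The upstream sequences of 2 genes that rose and 2 that fell are shown because NF-κB and the interferon and STAT pathways are known to act through short DNA motifs near gene starts. Each is the 250 bases before the first listed start site, from RefSeq on GRCm38.p6, read in the direction of transcription, and the genes were chosen after their values and matches were seen. Capitals mark the core of an NF-κB site, GGGANTTTC on either strand, in Csf1 (chr3:107760470-107760719, minus strand) and Nfkbia (chr12:55492648-55492897, minus strand), the inhibitor of NF-κB.
Csf1: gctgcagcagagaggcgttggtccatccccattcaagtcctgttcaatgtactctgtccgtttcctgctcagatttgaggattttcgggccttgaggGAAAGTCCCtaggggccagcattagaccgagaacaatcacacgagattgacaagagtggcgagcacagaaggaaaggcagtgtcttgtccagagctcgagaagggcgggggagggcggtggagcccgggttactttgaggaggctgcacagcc
Nfkbia: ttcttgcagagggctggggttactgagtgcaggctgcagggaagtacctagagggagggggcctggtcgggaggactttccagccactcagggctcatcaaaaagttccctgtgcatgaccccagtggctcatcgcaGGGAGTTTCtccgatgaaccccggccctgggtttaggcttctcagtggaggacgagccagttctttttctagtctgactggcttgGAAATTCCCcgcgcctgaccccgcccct
In Gzma (chr13:113100982-113101231, minus strand) and Socs1 (chr16:10785537-10785786, minus strand), they mark the core of an interferon-stimulated response element, GAAANNGAA on either strand.
Gzma: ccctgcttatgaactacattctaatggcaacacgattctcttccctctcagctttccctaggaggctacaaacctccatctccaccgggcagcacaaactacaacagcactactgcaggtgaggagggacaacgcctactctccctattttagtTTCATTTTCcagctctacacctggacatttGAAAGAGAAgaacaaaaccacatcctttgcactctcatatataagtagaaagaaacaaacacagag
Socs1: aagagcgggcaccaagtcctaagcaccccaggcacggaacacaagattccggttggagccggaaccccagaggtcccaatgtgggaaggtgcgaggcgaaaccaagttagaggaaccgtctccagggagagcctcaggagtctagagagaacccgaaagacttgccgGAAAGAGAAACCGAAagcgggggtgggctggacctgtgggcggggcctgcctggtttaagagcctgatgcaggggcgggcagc
Of the core marked in each sequence, Nfkbia, Gzma and Socs1 held 2 matches each, overlapping in Socs1, and Csf1 held 1. Nfkbia also held the interferon-stimulated core, which is not marked in its sequence. Of the kept genes, 294 had an upstream sequence. The NF-κB core was in 0.977% of all 27025 promoters, in 2 of the 64 kept genes that rose (Csf1 and Nfkbia), in 2 of the 38 that fell (Ltb and Gbp5) and in 3 of the 192 that did not pass. The interferon-stimulated core was in 7.16% of all promoters. It was in 10 of the 64 (Nfkbia, Spp1, Klrk1 and Ccl1 among them), 7 of the 38 (Gzma and Socs1 among them) and 25 of the 192. A match is a run of letters only.

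Secreted factors split between those that rose and those that fell. Of 10 kept cytokine genes, 4 rose (Csf1, Spp1, Ifng and Ebi3), 1 fell (Flt3l) and 5 did not pass. Of 8 kept chemokine genes, 3 rose (Ccl9, Xcl1 and Ccl1), 1 fell (Ccl5) and 4 did not pass. Ccl9, also a gene of the macrophage marker list, stood at 4.84, 5.34 and 5.66 alone and was kept through the macrophage group only. With all values below 100 normalized counts set to that level, it no longer passed in limma (1.37, adjusted P value 0.160). Xcl1, the ligand that draws cross-presenting dendritic cells, went from 12.29, 12.43 and 12.54 to 14.72, 15.08 and 14.71, a rise of 5.34-fold (adjusted P value 1.41e-04). Ccl1 went from 10.75, 10.81 and 10.83 to 12.49, 12.42 and 12.23 (3.00-fold, adjusted P value 2.18e-04). Both were abundant already in primed cells, and neither overlapped between the groups.

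Ifng, the gene of interferon-γ, which activates macrophages, stood at 7.62, 7.75 and 8.07 alone and at 9.65, 9.91 and 9.55 with macrophages (3.71-fold, adjusted P value 0.00275). Tnf, by contrast, had the values 7.96, 8.25 and 8.41 alone and 8.18, 8.46 and 8.01 with macrophages, which overlapped (a difference of 0.01, with a 95% interval from -0.38 to 0.40, that did not pass). The chemokine genes Ccl3 and Ccl4 had log2 fold changes of 0.61 and 0.00 (adjusted P values 0.613 and 1), and Csf2 one of 0.47 (adjusted P value 0.892). Il2, Il10 and Il21 were not kept. Ccl5, which encodes RANTES, fell from 12.54, 12.57 and 12.70 to 11.75, 11.73 and 11.89 (1.76-fold, adjusted P value 0.00539). Of these chemokine genes, Ccl5 passed the test and Ccl3 and Ccl4 did not.

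Flt3l, the growth factor of dendritic cells, fell from 10.24, 10.30 and 10.15 to 8.92, 8.98 and 8.82 (2.50-fold, adjusted P value 2.64e-04). Among 15 kept ligands of the TNF and B7 families, 5 rose and 3 fell. Tnfsf11, the gene of RANKL, a ligand for osteoclast precursors and dendritic cells, went from 8.78, 8.78 and 8.82 to 10.73, 10.55 and 10.60 (3.56-fold, adjusted P value 4.02e-05). Tnfsf14 (LIGHT), Tnfsf8 (CD30 ligand), Pdcd1lg2 (PD-L2) and Tnfsf10 (TRAIL) rose by 1.51, 0.82, 0.79 and 0.76. Lta and Ltb, which encode lymphotoxins, fell by 1.26 and 0.58, and Icosl by 1.36. The call for Ltb ended in 5 of the 6 leave-one-out fits, in each of which 1 sample was dropped (adjusted P values up to 0.131), all but that without macrophage replicate 2, and that for Pdcd1lg2 in 3 (up to 0.0781). Cd274 (PD-L1), Cd80 and Fasl had log2 fold changes of -0.21, -0.17 and -0.38 and did not pass.

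**Figure D3:**
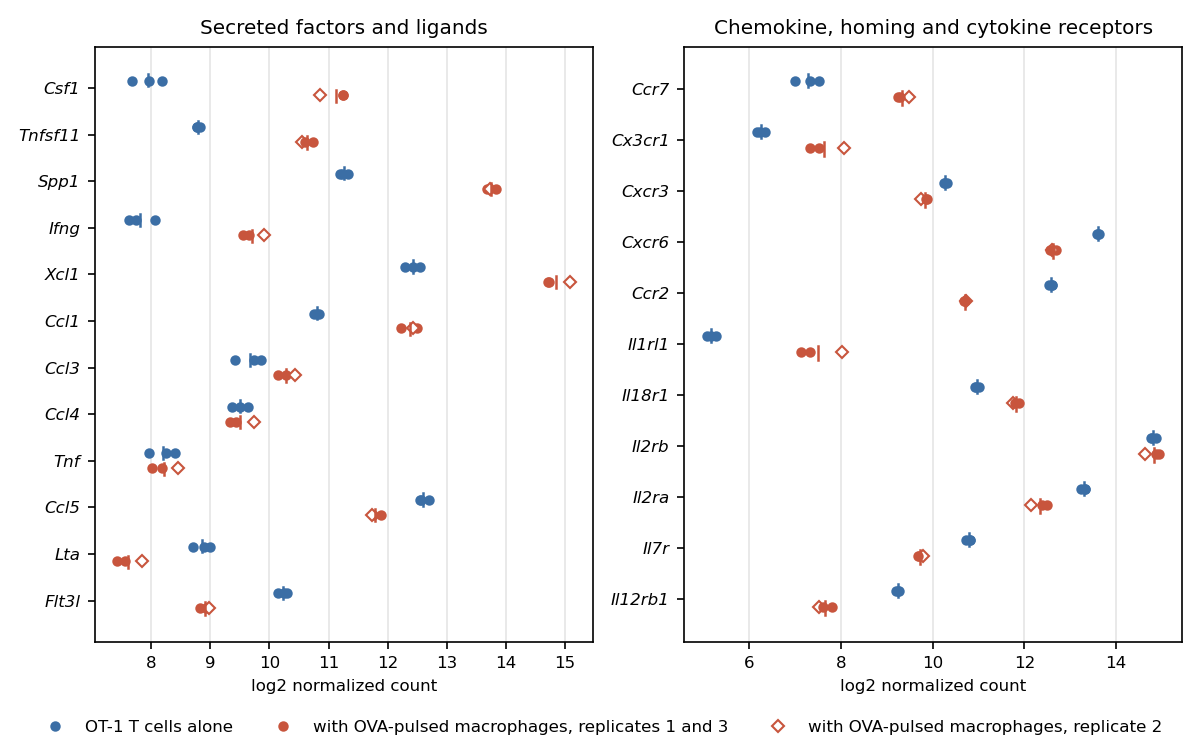
Level (log2 normalized count, horizontal axis) of 12 secreted factors and ligands and of 11 chemokine, homing and cytokine receptors in each sample, with OT-1 T cells alone in blue, macrophage co-cultures in red, macrophage replicate 2 as an open diamond and group means as short lines. Csf1, Xcl1 and Ccr7 lie fully to the right with macrophages and Flt3l, Ccr2 and Il12rb1 fully to the left, while Ccl4, Tnf and Il2rb overlap.

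Ccr2 and Cxcr6, receptors for inflammatory chemokines, fell, whereas Ccr7, which serves entry into lymph nodes, rose. Ccr2, the receptor for CCL2, stood at 12.59, 12.54 and 12.60 alone and at 10.68, 10.73 and 10.71 with macrophages (3.66-fold lower, adjusted P value 1.51e-05). Cxcr6 went from 13.61, 13.58 and 13.62 to 12.69, 12.59 and 12.56 (1.99-fold lower, adjusted P value 3.74e-04). Cxcr3 was 0.45 lower, a difference that did not pass (adjusted P value 0.146). In the other direction, Ccr7, which guides T cells into lymph nodes, rose from 7.0, 7.32 and 7.53 to 9.24, 9.49 and 9.28 (4.15-fold, adjusted P value 4.04e-04). Cx3cr1 and Ccrl2 rose by 1.38 and 1.16, but both were kept through the macrophage group only. Their mean levels alone were 6.25 and 6.28, under 100 normalized counts. The call for Cx3cr1 was lost without OT-1 alone replicate 1, 2 or 3 (adjusted P values 0.0561 to 0.0724). Of 10 kept genes of this list, 4 rose, 3 fell and 3 did not pass. Among the 8 kept through both groups, 2 rose and 3 fell.

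A short list of memory-like T cell genes overlaps the homing list. Of 7 kept members, 4 rose, Ccr7, Cd27 and Slamf6 among them, Il7r fell, and Tcf7 and Bcl6 did not pass. Slamf6 was kept through the macrophage group only. Cd27, a co-stimulatory receptor of less differentiated T cells, went from 8.80, 8.84 and 8.90 to 10.40, 10.30 and 10.57 (2.98-fold, adjusted P value 1.41e-04). Tcf7, which encodes the transcription factor TCF-1, stood at 9.19, 9.07 and 9.26 alone and at 9.42, 9.51 and 9.41 with macrophages. Its 2 ranges did not overlap, but the log2 fold change of 0.27 did not pass (adjusted P value 0.770). Il7r, the IL-7 receptor α chain, fell from 10.82, 10.73 and 10.82 to 9.71, 9.80 and 9.69 (2.08-fold, adjusted P value 3.68e-04).

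Of 22 kept cytokine receptor genes, 5 rose, 5 fell and 12 did not pass. Il1rl1, Il1r2 and Il6st were kept through the macrophage group only, and among the 19 kept through both groups 2 rose and 5 fell. Il1rl1, the gene of ST2, the receptor of the alarmin IL-33, stood at 5.17, 5.27 and 5.08 alone and at 7.33, 8.03 and 7.13 with macrophages (2.32, adjusted P value 0.00159). The decoy receptor gene Il1r2 rose by 2.04, the shared chain gene Il6st by 1.03, and both chains of the IL-18 receptor, Il18r1 and Il18rap, by 0.85 and 0.82. The levels of Il1rl1 and Il1r2 in OT-1 T cells alone lay under 100 normalized counts, where background counts make up part of the signal. With all values below 100 normalized counts set to that level, Il1rl1, Il1r2 and Il6st no longer passed (0.86, 0.37 and 0.37, adjusted P values 0.188, 1 and 0.280).

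The receptors that fell bind IL-12, IL-7, IL-2, TGF-β and IL-4. Il12rb1 went from 9.20, 9.25 and 9.26 to 7.81, 7.53 and 7.60 (3.01-fold lower, adjusted P value 1.51e-04), while its partner chain gene Il12rb2 was 0.26 lower and did not pass (adjusted P value 0.488). Il2ra, the α chain that gives the IL-2 receptor its high affinity, went from 13.24, 13.31 and 13.32 to 12.50, 12.14 and 12.38 (1.93-fold lower, adjusted P value 0.00401). The other chains of that receptor did not pass, Il2rb at 0.01 (95% interval -0.21 to 0.24) and Il2rg at -0.09. Tgfbr1 and Il4ra fell by 0.79 and 0.68, and the call for Tgfbr1 ended in 5 of the 6 leave-one-out fits (adjusted P values up to 0.0913). The part of IL-2 in the medium was not tested.

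Among 11 kept JAK, STAT and SOCS genes, Socs1, a feedback inhibitor of JAK signaling, was the 1 that fell. Its level went from 10.08, 10.17 and 10.04 to 8.43, 8.90 and 8.51 (2.80-fold lower, adjusted P value 0.00128), with no overlap. Stat4 and Jak3 rose by 0.53 and 0.47, and both turned negative after centring on the median of all genes (-0.17 and -0.22). Their calls ended in 3 and 5 of the 6 leave-one-out fits (adjusted P values up to 0.0949 and 0.244). Stat5b and Stat6 had log2 fold changes of -0.02 and 0.15 and did not pass.

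Interferon response genes did not move as a block. Of 25 kept, 5 fell (Ifitm1, Ifitm2, Isg20, Irf1 and Gbp5), 3 rose (Irf8, Xaf1 and Ifi27) and 17 did not pass, with a median log2 fold change of -0.09, against 0.04 over kept genes. Isg20, an antiviral exonuclease gene, went from 10.91, 10.82 and 10.82 to 9.76, 9.78 and 9.72 (2.14-fold lower). Irf8, a transcription factor gene also induced by the TCR, rose from 9.73, 9.84 and 9.82 to 11.10, 10.70 and 11.05 (1.15, adjusted P value 0.00225). Classic targets that did not pass included Bst2 (0.04), Ifit2 (-0.10) and Irf7 (0.55, adjusted P value 0.164), and Mx1, Rsad2, Oas2 and Ifit1 were not kept. Ifi27 rose by 0.45 but turned to -0.25 after centring on the median of all genes. The calls for Irf1 (-0.54), Xaf1 (0.88) and Ifi27 ended in 3, 4 and 4 of the 6 leave-one-out fits (adjusted P values up to 0.0687, 0.0967 and 0.171), and that for Gbp5 in 5 (up to 0.217).

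Of 15 kept genes of MHC class I and peptide loading, H2-D1 and Nlrc5, the class I transactivator gene, fell by 0.40 and 0.43, and each call ended in 5 of the 6 leave-one-out fits (adjusted P values up to 0.212 and 0.133). H2-T23, which encodes the nonclassical molecule Qa-1 that presents to NKG2 receptors, rose by 0.51 but stood at -0.18 after centring on the median of all genes. Tap1 and Psmb9 had log2 fold changes of -0.09 and 0.16 and did not pass.

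A list of transcription factors tied to the antigen receptor rose in part. It also holds lineage and effector factors, Ikzf1, Runx1, Eomes and Runx3 among them. Of its 21 kept members, 7 rose, 2 fell and 12 did not pass. Egr1, an immediate early gene, went from 8.68, 8.87 and 9.15 to 10.32, 10.10 and 10.02 (2.37-fold, adjusted P value 0.00364). Ikzf2, the gene of Helios, went from 8.25, 8.32 and 8.51 to 10.06, 10.14 and 10.25 (3.46-fold, adjusted P value 1.32e-04). Egr2, Nfatc1, Runx1, Egr3 and Ikzf1 rose by 1.33, 1.05, 1.03, 0.87 and 0.73. Egr2, with a mean of 6.23 alone, was kept through the macrophage group only. Irf4 at 0.09 (95% interval -0.17 to 0.36), Batf at -0.22 and Myc at -0.24, which are known to follow TCR signals, did not pass. The effector factors Eomes and Runx3 fell by 0.77 and 0.67, and Tbx21 (T-bet) stood 0.44 lower without passing (adjusted P value 0.151). The call for Egr3 ended in 5 of the 6 leave-one-out fits (adjusted P values up to 0.183).

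The signaling genes that rose included feedback inhibitors. Of 18 kept genes of the NF-κB pathway, 5 rose and 1, Traf3, fell by 0.65, a call lost in 4 leave-one-out fits (adjusted P values up to 0.162). Nfkbia went from 8.57, 8.60 and 8.67 to 9.92, 10.12 and 10.08 (2.69-fold, adjusted P value 1.41e-04), and Tnfaip3, the gene of the inhibitor A20, from 8.68, 8.66 and 8.81 to 10.19, 9.95 and 10.06 (2.55-fold, adjusted P value 5.66e-04). The subunit genes Rel and Nfkb2 rose by 1.07 and 0.52, while Rela, Relb and Nfkb1 had values of -0.17, 0.15 and -0.03 and did not pass. Nfkb2 was negative after centring on the median of all genes (-0.17), and its call ended in 5 leave-one-out fits (adjusted P values up to 0.168). Of 16 kept MAP kinase genes, 3 rose and 0 fell (adjusted P values from limma; 4 rose and 0 fell without macrophage replicate 2). Of these, Dusp4 and Dusp6 encode phosphatases that switch off MAP kinases, and they rose by 1.81 and 1.18. Dusp4 went from 8.10, 8.15 and 8.22 to 9.97, 10.19 and 9.75. Mapk8, the kinase gene among them, rose by 0.66, a call that ended in 5 of the 6 leave-one-out fits (adjusted P values up to 0.162) and turned to -0.03 after centring on the median of all genes.

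**Figure D4:**
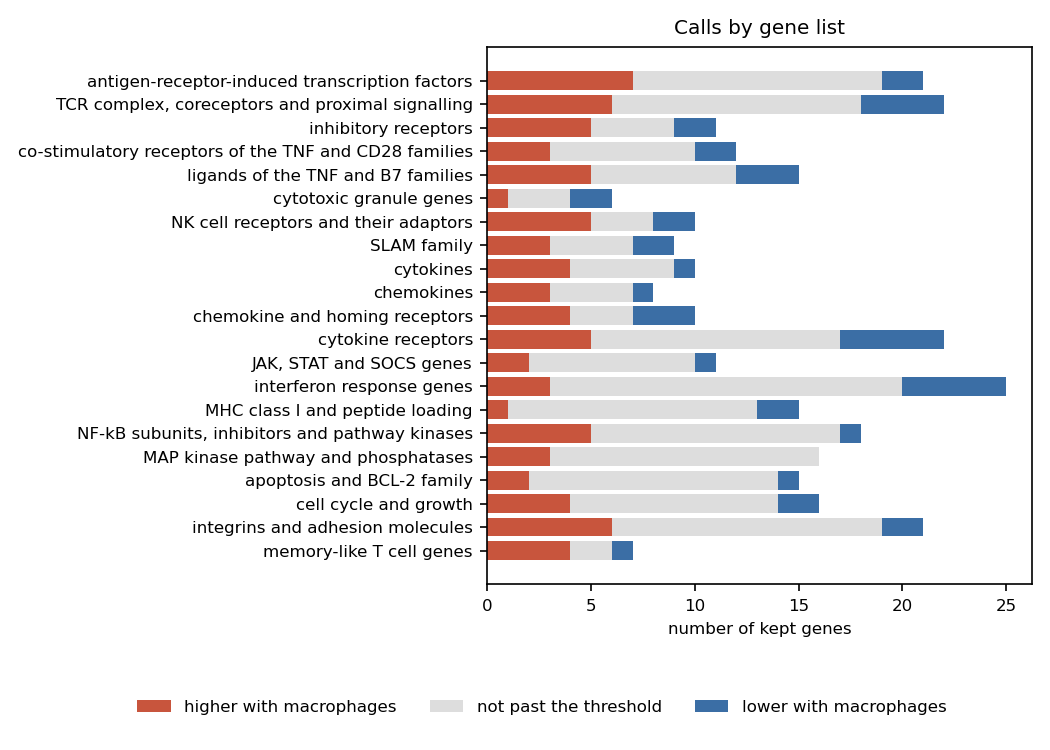
Number of kept genes (horizontal axis) in each of the 21 gene lists that were higher (red), lower (blue) or not past the threshold (grey) with macrophages against OT-1 T cells alone. Genes can stand in more than 1 list; the MAP kinase list holds rises only and each of the others holds calls in both directions.

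The list counts stand beside 22.2% of kept genes higher and 12.7% lower, and no list was tested against other genes. Without macrophage replicate 2, the rises and falls were 8 and 4 for the TCR complex, 7 and 3 for transcription factors, 6 and 3 for ligands of the TNF and B7 families and 5 and 3 for inhibitory receptors. They were 3 and 6 for interferon response genes, 1 and 4 for MHC class I, 3 and 3 for the SLAM family, 3 and 2 for the JAK, STAT and SOCS list, 3 and 2 for apoptosis and 4 and 3 for growth. Members kept through 1 group only had to differ. Among those kept through both groups, the rises and falls were 6 and 2 for transcription factors, 6 and 3 for the TCR complex, 5 and 2 for ligands, 4 and 1 for NK cell receptors, 3 and 1 for co-stimulatory receptors and 3 and 2 for growth. They were 2 and 3 for chemokine and homing receptors, 2 and 1 for chemokines, 2 and 2 for the SLAM family and 3 and 1 for memory-like genes.

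Of 11 kept inhibitory receptors, 5 rose, 2 fell and 4 did not pass, with a median log2 fold change of 0.73 beside 0.04 over kept genes. Lag3, a receptor for MHC class II, went from 10.86, 10.78 and 10.94 to 12.42, 11.86 and 12.41 (2.58-fold, adjusted P value 0.00421). Tigit went from 9.22, 9.25 and 9.34 to 10.64, 10.43 and 10.64 (2.46-fold, adjusted P value 3.49e-04). Pdcd1 (PD-1), Klrc1 (NKG2A) and Cd96 rose by 0.99, 1.04 and 0.73. Cd244 (2B4) went from 10.66, 10.74 and 10.75 to 9.62, 9.95 and 9.71 (a fall of 0.96, adjusted P value 0.00241), and Havcr2 (TIM-3) fell by 0.57, a call lost in 5 of the 6 leave-one-out fits (adjusted P values up to 0.121). Ctla4 had overlapping groups and a difference of 0.12 (95% interval -0.10 to 0.34).

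Of 12 kept co-stimulatory receptors, 3 rose and 2 fell, beside 34.9% of kept genes called. Besides Cd27, Tnfrsf4 (OX40) rose by 1.23 and Tnfrsf18 (GITR) by 0.48, although Tnfrsf18 stood at -0.22 after centring on the median of all genes and its call ended in 4 leave-one-out fits (adjusted P values up to 0.208). Tnfrsf8, the gene of CD30, went from 7.89, 8.01 and 8.04 to 5.89, 6.13 and 5.63 (4.28-fold lower, adjusted P value 3.49e-04). Its ligand gene Tnfsf8 was among those that rose. Tnfrsf1a, a TNF receptor gene, fell by 0.55, a call lost in 5 leave-one-out fits (adjusted P values up to 0.117). Tnfrsf9 (4-1BB), Icos and Cd28 had log2 fold changes of 0.48, -0.15 and 0.43 and did not pass. Other surface genes that rose were Cd83, an activation marker (2.37, with 5.90, 5.97 and 6.13 alone against 7.82, 9.18 and 8.11), Alcam, a ligand of CD6 (1.65), Cd200 (1.64) and Nt5e, the ectoenzyme CD73, which makes adenosine (1.41). The adenosine receptor gene Adora2a rose by 0.71, and Entpd1 (CD39) stood 0.68 lower without passing (adjusted P value 0.118). The call for Cd83 ended without OT-1 alone replicate 1 or 2 (adjusted P values 0.0588 and 0.0570).

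Among cytotoxic granule genes, both granzymes that were kept fell and perforin rose. Gzmb went from 14.07, 14.09 and 14.04 to 12.65, 12.94 and 12.65 (2.50-fold lower, adjusted P value 0.00919), and Prf1 from 9.39, 9.50 and 9.50 to 10.48, 10.13 and 10.46 (1.86-fold higher, adjusted P value 0.0429). The groups did not overlap for either gene. The call for Gzmb ended in 3 of the 6 leave-one-out fits, those without OT-1 alone replicate 1 or 2 or macrophage replicate 3 (adjusted P values up to 0.0559), and that for Prf1 in 5, all but that without macrophage replicate 2 (up to 0.201). Ctsw, Lamp1 and Lamp2 stood 0.27, 0.28 and 0.33 lower and did not pass.

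Of 10 kept NK cell receptors and adaptors, 5 rose and 2 fell. Klrk1, the gene of NKG2D, went from 12.65, 12.64 and 12.63 to 13.60, 13.76 and 13.64 (2.04-fold). Klrc2 (NKG2C) went from 8.26, 8.30 and 8.18 to 9.70, 9.83 and 9.70, and its partner chain gene Klrd1 (CD94) rose by 0.84 from a level of 14.03, a call lost in 4 leave-one-out fits (adjusted P values up to 0.148). The adaptor gene Hcst (DAP10) had a log2 fold change of -0.46 and did not pass (adjusted P value 0.955). Klra17 and Klrb1c (NK1.1) changed by 2.11 and -2.24 with mean levels of 4.91 alone and 5.09 with macrophages, both under 100 normalized counts, and their calls ended in 5 and 4 of the 6 leave-one-out fits (adjusted P values up to 0.191 and 0.170). In the SLAM family, Slamf6, Ly9 and Cd84 rose by 2.06, 1.02 and 0.84, and Slamf7 and Cd244 fell by 0.64 and 0.96. Slamf6 stood at 5.40, 5.90 and 5.90 alone, under 100 normalized counts, and was kept through the macrophage group only. Its call was lost in limma after centring on the median of all genes (adjusted P value 0.163) and after quantile normalization (0.131).

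Of 22 kept genes of the TCR complex and its proximal signaling, 6 rose and 4 fell, beside 22.2% and 12.7% of kept genes. Cd5, a brake on TCR signaling, rose from 10.08, 10.07 and 9.96 to 11.30, 11.03 and 11.27 (1.16, adjusted P value 0.00111). Cd8a, Zap70, Cd3e and Cd3g rose by 0.72, 0.63, 0.57 and 0.41, Cd247 (the ζ chain) fell by 0.36, and Cd3d, Cd8b1 and Lck had log2 fold changes of 0.27, 0.23 and 0.10 and did not pass. After centring on the median of all genes, Zap70, Cd3e and Cd3g stood at -0.07, -0.12 and -0.29. The calls for Cd8a, Zap70, Cd3e, Cd3g and Cd247 ended in 4, 5, 5, 5 and 5 of the 6 leave-one-out fits (adjusted P values up to 0.0839, 0.116, 0.174, 0.214 and 0.234). Cd7 fell from 8.67, 8.58 and 8.69 to 5.87, 7.43 and 5.60, with replicate 2 above the other macrophage samples and a call lost in 5 of those fits (adjusted P values up to 0.193). Cd2, an adhesion receptor, fell by 0.88, a call lost without OT-1 alone replicate 2 (adjusted P value 0.0510).

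Of 16 kept cell cycle and growth genes, 4 rose and 2 fell, beside 34.9% of kept genes called, with the ectoenzyme genes Cd38 and Nt5e and the receptor gene Adora2a counted among the rises. Cdk1 rose by 0.95, but with a mean of 6.05 alone it was kept through the macrophage group only. Among the growth genes kept through both groups, 3 rose and 2 fell. Cdkn1a, the gene of the cell cycle inhibitor p21, fell from 10.69, 10.67 and 10.62 to 8.79, 9.08 and 8.45 (3.70-fold). Ccnd3, the gene of cyclin D3, fell by 0.84 (adjusted P value 0.00104), and the proliferation-linked gene Birc5 had a log2 fold change of -0.08 and did not pass. Of 15 kept apoptosis genes, Bcl2, which protects from cell death, fell by 0.85, Tnfsf10 and Xaf1 rose and 12 did not pass. The calls for Cdk1, Cdkn1a, Cd38 and Bcl2 ended in 4, 5, 5 and 4 of the 6 leave-one-out fits (adjusted P values up to 0.125, 0.148, 0.158 and 0.133). Among 21 kept integrin and adhesion genes (7 higher and 5 lower without macrophage replicate 2, beside 34.9% of kept genes called), 6 rose, including Itga6, Itgb3, Pecam1 and Itga4 at 0.87, 0.80, 0.80 and 0.60 beside Alcam, and 2 fell, Itga1, a subunit of a collagen receptor, by 1.38 and Selplg by 0.50. The calls for Itga6, Pecam1, Itga4 and Selplg ended in 3, 5, 5 and 5 leave-one-out fits (adjusted P values up to 0.0556, 0.102, 0.142 and 0.122), and Itga4 stood at -0.10 after centring on the median of all genes.

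A further 30 kept genes passed only without macrophage replicate 2. They were singled out after their values were seen. The largest was Cdh1, the gene of E-cadherin, at 7.38, 7.47 and 7.57 alone and at 4.95, 7.96 and 5.20 with macrophages. Itgae, which encodes the αE integrin (CD103) that binds E-cadherin, had the same form, with 7.44, 7.44 and 7.36 alone and 4.99, 8.0 and 5.50 with macrophages. For both genes, macrophage replicates 1 and 3 lay below every sample of OT-1 T cells alone and replicate 2 above all of them, where it rested on 39 and 40 recovered counts. Without that replicate, Cdh1 and Itgae fell by 2.40 and 2.17 (adjusted P values 1.35e-04 and 0.00136). Irgm2, Osm and Abcg1 fell by 1.26, 1.22 and 1.51 in the same fit.

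**Figure D5:**
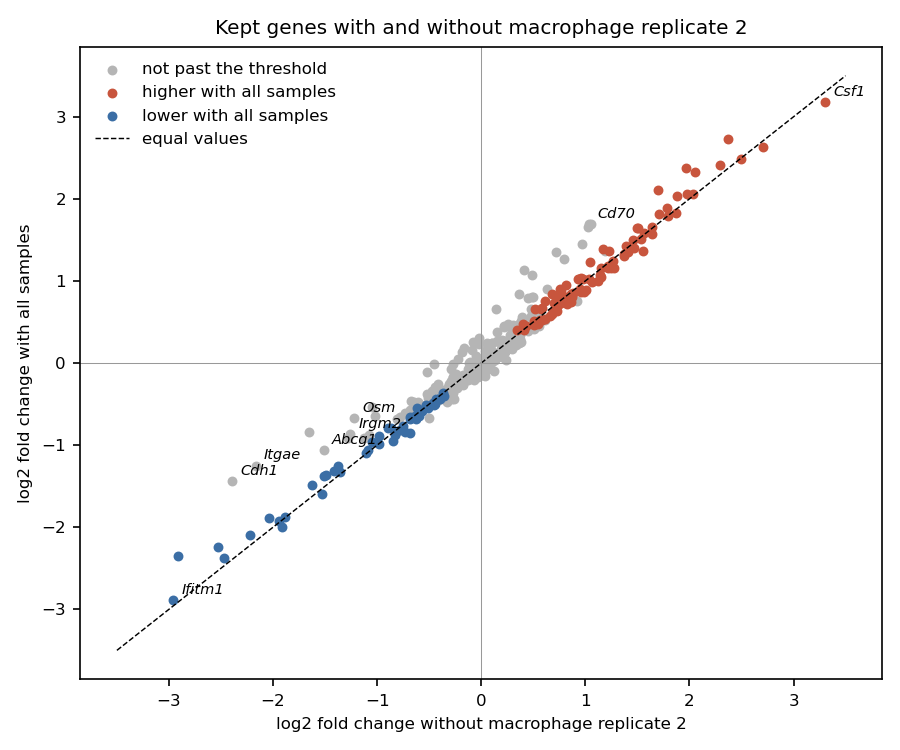
Log2 fold change of each of the 387 kept genes with all samples (vertical axis) against that without macrophage replicate 2 (horizontal axis), colored by the call with all samples; the dashed line marks equal values. Most called genes lie near the line, while Cdh1 (-1.44 against -2.40) and Itgae (-1.25 against -2.17) lie above it.

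Cd8a, Cd8b1, Cd3d, Cd3e and Cd3g all stood above 10 in every sample. Of 30 macrophage marker genes measured, 5 were kept, of which Spp1, Ccl9 and Axl rose and Cd68 and Fcer1g did not pass. The call for Axl, a receptor tyrosine kinase gene, ended in 4 leave-one-out fits (adjusted P values up to 0.0944). Csf1r, the receptor of CSF-1, stood at 4.03, 3.76 and 4.26 alone and at 3.74, 6.67 and 4.53 with macrophages. Cd14, Lyz2, Fcgr1, Itgam, Mrc1 and C1qa lay under 100 normalized counts in each sample other than macrophage replicate 2. In that replicate Cd14, Fcgr1 and Lyz2 were above that limit (7.96, 7.13 and 6.67). Itgam, Mrc1 and C1qa stayed under it there (6.13, 6.58 and 6.13). The normalized counts of the 30 genes summed to 3626 to 4033 alone and to 14619 to 17508 with macrophages, and without Spp1 to 1224 to 1458 alone and to 1585, 4014 and 1701 with macrophages. Cd74, the invariant chain of MHC class II, rose from 5.45, 5.70 and 5.76 to 7.06, 7.58 and 7.21. It was kept through the macrophage group only. H2-Ab1, at 6.93, 7.10 and 7.16 alone and 6.40, 7.07 and 6.84 with macrophages, did not pass. Of 5 kept genes of the MHC class II list Cd74 was the 1 that rose, Kit and Pecam1 rose among 2 kept genes each of the neutrophil and mast cell list and of the mesenchymal and epithelial list, and the B cell and the CD4 lists held 1 kept gene each that did not pass. The call for Kit (0.67), a growth factor receptor gene, ended in 5 leave-one-out fits (adjusted P values up to 0.162), and the gene stood at -0.03 after centring on the median of all genes. Of the 6 marker lists for other cells, each had its highest median in macrophage replicate 2 (6.32 to 7.0, against 3.70 to 5.12 in the other samples). That low-depth replicate lay above the mean of macrophage replicates 1 and 3 for 275 of all 276 genes with a level under 5 in them. The part of macrophage RNA in the rises of Spp1, Ccl9, Axl and Cd74 was not tested.

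When CT2A-TRP2-B2mKO cells were added to the macrophage co-culture, 17 of the 23 genes in the plot of the largest changes did not pass when both co-cultures were set against each other, a contrast that called 3.2% of all genes. Both contrasts share the macrophage samples. Without macrophage replicate 2, 15 did not pass, since Nrp1 (-0.72) and Cd7 (1.49) also passed (adjusted P values 0.0343 and 0.0235). Ifitm1 and Ifitm2, which had fallen with macrophages, stood higher with tumor cells by 1.26 and 1.04 (adjusted P value 0.00154 each), at means of 11.89 and 12.48, still below those of OT-1 T cells alone. The deviations of same-numbered co-cultures had correlations of 0.16 to 0.24. These were not set against differently numbered samples, so whether the numbers pair the co-cultures was not settled. With the replicate number as a block over all 9 samples, OT-1 T cells alone included, 10 of all genes passed in limma. Of the 23, Ifitm1 and Ifitm2 still passed in that fit (limma adjusted P values 0.0260 and 0.0256). The other 21 of the 23 were not past the threshold. Calls lost under that block were those of Gzma (0.80), Spp1 (-0.67), Il1rl1 (-1.54) and Ccr7 (1.66), with adjusted P values of 0.0235, 0.0190, 0.0447 and 0.00509 without it and 0.110, 0.117, 0.0988 and 0.0548 with it. In limma fits of the 6 co-culture samples alone, 0 of all genes passed with or without the block, and 83 had an unadjusted P value under 0.05 with it. For Csf1 the difference between the co-cultures was 0.24 (s.e. 0.16) and for Ccr2 -0.03 (s.e. 0.06), and neither passed.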

How the data were processed

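RNA of the OT-1 T cells was counted with the nCounter PanCancer Immune Profiling Panel. The authors normalized the counts in nSolver and deposited them on the log2 scale, rounded to 2 decimals, for 750 genes in 9 samples; raw counts were not used here. In each sample the low values were whole multiples of 1 step (100% within the rounding of 0.005), which gave the recovered counts. Replicates differed by more than their sampling noise (chi-square per degree of freedom 1.95 to 25.6) and were each counted once.

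A linear model with 3 groups and all 9 samples was fitted to each gene's log2 values (R 4.3.3, limma 3.58.1, moderated variances, two-sided), and P values were adjusted over all 750 genes by Benjamini-Yekutieli, which the methods name, with a threshold of 0.05. The deviations of same-numbered co-cultures had correlations of 0.16 to 0.24, which were not set against those of differently numbered samples. The comparison of the co-cultures is also given with a replicate block, chosen after seeing the data. It was fitted over all 9 samples and over the co-cultures alone. Genes were counted over the 387 with a group mean of at least 6.64. The text names the 12 largest rises and 11 of the 12 largest falls that also passed without macrophage replicate 2 with no overlap, and members of 21 function lists and 6 marker lists, several of them chosen after their values were seen. The members, lists and rule were all chosen with earlier results of these data known. The alternatives covered samples left out, scaling, filters, weights, adjustment and a replicate block, 20 settings in all. The procedure was also run on simulated data with normal noise at each gene's pooled spread. Those data did not model the low depth of macrophage replicate 2, and no result here rests on them. Of the 750 symbols, 734 are current in RefSeq (GRCm38.p6), 8 are listed synonyms and 8 were not matched and kept the deposited name. A few genes that the rule covers are not reported here. The housekeeping genes were not analysed here.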

Additional observations from a re-analysis of the deposited data

How the results depend on the processing

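Leaving out 1 sample at a time gave 55 to 95 kept genes higher and 26 to 69 lower, beside 86 and 49 with all samples. The lowest counts came without OT-1 alone replicate 2, and without OT-1 alone replicate 1 the counts were 56 and 28. Without OT-1 alone replicate 3, macrophage replicate 1 or macrophage replicate 3, 28, 32 and 30 were lower. Such fits hold fewer samples. Of 115 named genes that had passed, 73 kept their call in all 6 of these fits, and 42 lost it in at least 1. A fit of the 6 samples alone gave 48 higher and 24 lower. Centring on the median of all genes gave 7 and 29. It takes 0.695 from each log2 fold change and reversed Tnfrsf18 (-0.22), Stat4 (-0.17), Jak3 (-0.22), Ifi27 (-0.25), H2-T23 (-0.18), Mapk8 (-0.0317), Cd3e (-0.12), Cd3g (-0.29), Itga4 (-0.10), Nfkb2 (-0.17), Zap70 (-0.065) and Kit (-0.0283). Sample weights gave 134 and 109, Benjamini-Hochberg adjustment 114 and 83, precision weights from the recovered counts 105 and 92, and a mean of 100 in both groups 92 and 74. Leaving out macrophage replicate 2 and centring on genes at 9 or more, a setting chosen after seeing the data, gave 84 and 89. With the replicate number as a replicate block, 61 were higher and 30 lower. The deviations of same-numbered samples of these groups had correlations of 0.41, -0.03 and -0.32. These differ in sign and were not set against differently numbered samples, so whether the numbers pair the samples was not settled. Apart from the reversals under centring, no named gene that had passed changed direction in any of the 20 settings. Depth limits the genes of low level most. Genes with under 20 recovered counts numbered 254 in macrophage replicate 2 and 198 in OT-1 alone replicate 3. The other samples of the comparison had 90 to 144.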
